A study of Mus musculus with 16 samples.

Results

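The genes described here belong to the nuclear part of the mitochondrial respiratory chain and ATP synthase. They were taken by symbol: every gene named Nduf, Uqcr, Cox4 to Cox8 or Atp5, plus Sdha, Sdhb, Sdhc and Sdhd, without symbols holding -ps and without genes of the mitochondrial chromosome. This rule, which uses no measured value, took 98 of the 55573 genes of the count table. They fall into complex I (39), complex I assembly factors named Ndufaf (8), complex II (4), complex III (8), complex IV with Ndufa4 and its relative Ndufa4l2 (21) and ATP synthase (18). By annotation 94 are protein coding and 4 are processed pseudogenes (Ndufa11b, Ndufb4c, Ndufs6b and Cox6c2). The 98 genes lie on 19 chromosomes, with 3 on X. The filter on low counts kept 91 of them. The 4 pseudogenes, Cox7b2, Cox8c and a second identifier of Atp5o did not pass it.

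RNA was sequenced from whole epididymal white adipose tissue (eWAT) of C57BLKS/J-db/db male mice on chow, which lack a functional leptin receptor and become obese and diabetic. The mice carried either AAV8-LRG1-FL, a virus encoding the secreted glycoprotein LRG1 with a C-terminal FLAG tag, or AAV8-eGFP, the control virus encoding green fluorescent protein. Both vectors use the ubiquitous CB7 promoter and were injected retro-orbitally at 4 weeks of age, so transduction was not limited to one cell type. At week 7 and at week 10 of age, 4 mice of each treatment were sampled, which gives 16 libraries. Every mouse received a virus and every mouse was db/db; whole cages were assigned to a treatment, so cage and treatment cannot be told apart.

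The respiratory chain passes electrons from NADH (complex I) and succinate (complex II) through complex III to oxygen at complex IV, and ATP synthase uses the proton gradient that results. Its subunits come from both the nuclear and the mitochondrial genome, and the nuclear genes are known to share transcription factors such as NRF1 and GABP. Several complex IV subunits exist as paired isoforms, a common one and one typical of heart, muscle and brown fat, or of hypoxic tissue. White fat holds fewer mitochondria per cell than brown fat.

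Library totals ran from 45376227 to 67539937 counts. Lrg1, the gene overexpressed, was at 86.2 to 110.2 CPM (counts relative to the library total after scaling by TMM factors) with eGFP and 288 to 478 CPM with LRG1 in week 7, and at 99.5 to 114.6 and 286 to 624 CPM in week 10. Its counts do not separate transcripts of the vector from those of the mouse gene. Leukocyte transcripts differed between the treatments. The 10 pan-leukocyte markers summed to 1515 to 1861 CPM in eGFP and 473 to 662 CPM in LRG1 libraries at week 7, with all 10 lower in LRG1. At week 10 they summed to 805 to 1948 and 478 to 675 CPM. All 10 again had fitted values below 0, and 9 of 10 were lower at an edgeR adjusted p below 0.01. The lowest group mean of any of these markers was 13.04 CPM (Vav1). In eGFP mice of week 10, replicates 1 and 3 held 1948 and 1907 CPM of these markers and replicates 2 and 4 held 805 and 980 CPM. In bulk tissue, fewer cells of a type and less RNA per cell cannot be told apart, and the part of cell composition in the differences below was not tested.

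Sequence before the transcription start was available for 75 of the 91 tested genes in the RefSeq promoter table of GRCm38.p6, which covers 250 bases before and 50 after each start. Letters of 4 motifs were searched on both strands. The NRF1 core GCATGCGC was in the windows of 12 of these genes (16%), against 3.05% of 27025 genes in the table. The ETS core CCGGAAG, bound by GABP, was in 18 (24%, against 9.93%), the YY1 core AAGATGGC in 11 (14.7%, against 3.19%) and the GC box GGGCGG in 34 (45.3%, against 38.2%). A match describes the letters and is no measurement of binding. The 120 bases before the start are shown for 3 genes to which the values below return. Ndufab1 rose at both weeks, Atp5g2 had the lowest fitted change of all members at week 10, and Sdhb is a core subunit with little change. Capitals mark a GC box in Ndufab1, 2 NRF1 cores that overlap on opposite strands in Atp5g2, and a GC box followed by an NRF1 core in Sdhb.
Ndufab1 (GRCm38.p6, chr7:122101849-122101968, minus strand): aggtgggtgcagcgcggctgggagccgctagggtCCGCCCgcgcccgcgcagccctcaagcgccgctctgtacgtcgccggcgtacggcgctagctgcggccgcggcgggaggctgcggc
Atp5g2 (GRCm38.p6, chr15:102671048-102671167, minus strand): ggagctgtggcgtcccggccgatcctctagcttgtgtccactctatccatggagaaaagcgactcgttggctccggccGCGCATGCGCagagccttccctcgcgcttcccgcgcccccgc
Sdhb (GRCm38.p6, chr4:140961151-140961270, plus strand): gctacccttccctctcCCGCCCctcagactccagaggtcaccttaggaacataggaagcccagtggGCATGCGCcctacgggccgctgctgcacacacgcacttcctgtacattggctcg
The printed stretches lie before the RefSeq start, which can differ from the gene model used for counting. Members without an entry in the promoter table included Ndufa4l2, Atp5a1, Atp5mpl, Cox4i1, Cox4i2, Cox6a2, Cox6c, Ndufa2, Ndufaf6, Ndufb9, Ndufs1, Sdhc, Uqcrb, Uqcrc2 and Uqcrq.

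Between genes, levels were compared per kilobase of the deposited gene length (RPKM, computed here). The mean over 16 libraries was above 100 RPKM for 7 tested members, between 10 and 100 RPKM for 62 and below 10 RPKM for 22. The highest were the complex IV subunits Cox6b1 at 221 RPKM and Cox8a at 199 RPKM, and the ATP synthase catalytic pair Atp5b at 195 RPKM and Atp5a1 at 193 RPKM. The ranges of these 4 over the libraries overlapped (195 to 258, 135 to 248, 151 to 240 and 158 to 233 RPKM), so their order is not fixed by these libraries. At the other end stood Cox6b2, the testis form of Cox6b, at 0.349 RPKM, Cox6a2, the heart and muscle form of Cox6a, at 0.860 RPKM and Atp5l, subunit g of ATP synthase, at 0.889 RPKM. Complex I assembly factors were low, with a median of 3.55 RPKM ± 0.39 (SD, n = 4) in eGFP libraries of week 7, against 22.8 ± 1.28 for complex I subunits, 42.2 ± 1.66 for complex II, 49.8 ± 2.30 for complex III, 42.2 ± 2.87 for complex IV and 21.1 ± 0.68 for ATP synthase. As a share of all counts, the members took 0.620% ± 0.0215 with eGFP and 0.610% ± 0.0205 with LRG1 in week 7. In week 10 they took 0.561% ± 0.0557 and 0.589% ± 0.0271 (SD, n = 4). Of counts outside the mitochondrial chromosome, they took 0.858% ± 0.0365 with eGFP and 0.911% ± 0.0506 with LRG1 in week 7. In week 10 this share was 0.788% ± 0.0744 and 0.842% ± 0.0520 (SD, n = 4). The order of the treatments at week 7 thus depends on the counts divided by.

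The first question was whether LRG1 changed these transcripts at week 7. Of the 91 members, 2 rose in LRG1 mice and 0 fell at an adjusted p below 0.01 (edgeR quasi-likelihood test, adjusted over 20822 genes). Over all genes tested, 7.37% were called higher and 10.7% lower, so the share of members called, 2.20%, was below these shares of all genes together. At an unadjusted p below 0.05 the members held 26 higher and 4 lower, beside 8803 of the 20822 genes in either direction. DESeq2 called 6 higher and 0 lower, with 26.7% of the genes it gave an adjusted p called in either direction. Limma-voom called 2 higher and 0 lower, with 18.7% of all genes called. The genes called were Ndufab1 and Ndufa4l2.

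Ndufab1, the mitochondrial acyl carrier protein that is also a subunit of complex I, lies on chromosome 7 from 122085403 to 122101886. In week 7 it was at 19.2, 18.9, 19.7 and 19.1 CPM in the 4 eGFP libraries and at 22.7, 23.5, 27.8 and 26.1 CPM in the LRG1 libraries. All LRG1 libraries stood above all eGFP libraries. The log2 fold change was 0.38 (SE 0.09, edgeR adjusted p = 0.0041). Ndufa4l2 lies on chromosome 10 from 127514967 to 127517154 and encodes a relative of the complex IV subunit Ndufa4 that is known as a target of hypoxia-inducible factor. It was at 2.98, 3.35, 3.90 and 3.48 CPM in eGFP and at 6.05, 5.97, 5.30 and 5.96 CPM in LRG1 libraries of week 7. The groups did not overlap, and the log2 fold change was 0.76 (SE 0.12, edgeR adjusted p = 0.000245). Leaving out 1 library of week 7 in turn gave Ndufab1 an edgeR adjusted p from 0.0044 to 0.019, and its call was lost without any one of the 4 eGFP libraries or LRG1 replicate 3 or 4. With library size alone in place of TMM factors its log2 fold change was 0.22 and it was not called (edgeR adjusted p = 0.155). Ndufa4l2 was called under all 20 alternatives tried for week 7.

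At week 10 the same 2 genes rose and 0 members fell. The background was 3.66% higher and 5.24% lower. The members held 18 higher and 2 lower at an unadjusted p below 0.05, beside 7634 of the 20822 genes in either direction. DESeq2 called 4 higher and 1 lower, with 19.4% of genes called in either direction, and limma-voom 2 and 0, with 6.93% called. Ndufab1 was at 15.98, 20.2, 15.7 and 18.9 CPM in eGFP and 21.8, 22.2, 24.4 and 23.7 CPM in LRG1 libraries (log2 fold change 0.38, SE 0.09, edgeR adjusted p = 0.0077). Ndufa4l2 was at 3.65, 3.64, 4.09 and 3.93 CPM in eGFP and 5.36, 5.0, 6.83 and 5.06 CPM in LRG1 libraries (log2 fold change 0.54, SE 0.12, edgeR adjusted p = 0.0057). For both genes the groups again did not overlap. In eGFP mice of week 10 the lowest values of Ndufab1, in replicates 1 and 3, fell in the libraries with most leukocyte transcripts. Without these 2 libraries the log2 fold change of Ndufab1 was 0.23 (edgeR adjusted p = 0.15) and that of Ndufa4l2 was 0.56 (edgeR adjusted p = 0.046). In that fit 0 members were called higher, with 0.74% of all genes called in either direction, against 8.90% with all libraries. Leaving out 1 library of week 10 in turn, the call of Ndufab1 was lost without eGFP replicate 1 or 3 or any LRG1 replicate (edgeR adjusted p up to 0.032). That of Ndufa4l2 was lost without eGFP replicate 1 or 3 or LRG1 replicate 1, 3 or 4 (edgeR adjusted p up to 0.021).

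**Figure D1:**
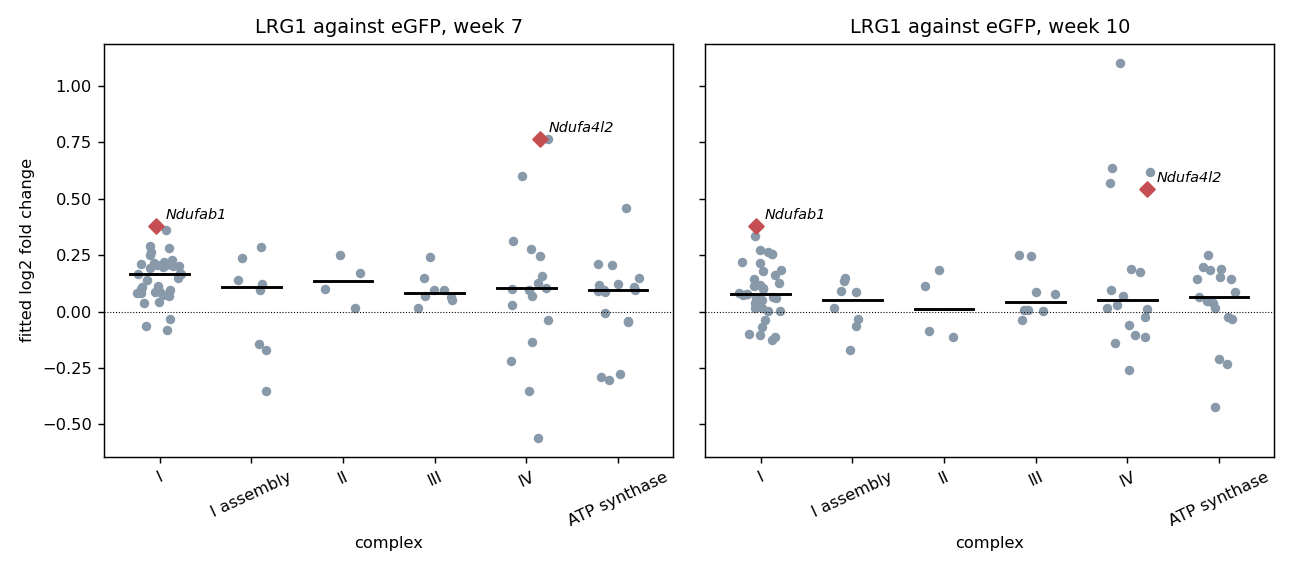
Fitted log2 fold change of LRG1 against eGFP for each of the 91 tested members (points), by complex, at week 7 (left) and week 10 (right). Diamonds mark genes at an edgeR adjusted p below 0.01 and bars the median of each complex. The medians of the complexes lie between 0.01 and 0.17, and Ndufab1 and Ndufa4l2 are the genes called at both weeks.

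**Figure D2:**
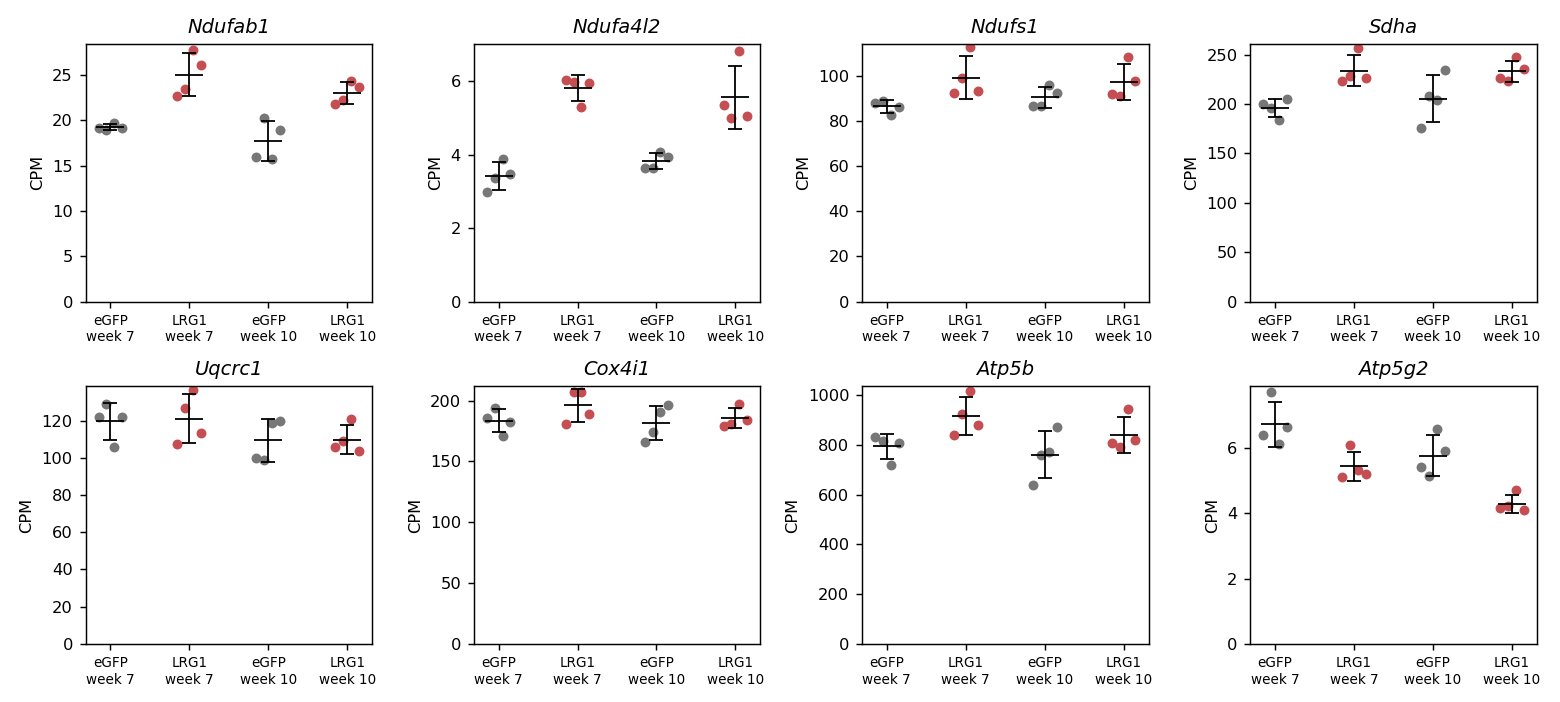
CPM in each library (points) of 8 members, with the mean and SD of the 4 libraries of a group (bars), eGFP in grey and LRG1 in red. Ndufab1 and Ndufa4l2 do not overlap between treatments at either week, Atp5g2 is lower in all LRG1 libraries of each week, and the groups of Uqcrc1 and Cox4i1 overlap at both weeks.

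At the looser adjusted p below 0.05, 11 members were higher and 1 lower at week 7 (background 15% and 16.5%), and 8 were higher and 2 lower at week 10 (background 10.3% and 12.6%). The 11 were Ndufab1, Ndufa4l2, Ndufa4, the complex I subunits Ndufb3, Ndufb4, Ndufb9, Ndufb10, Ndufs3 and Ndufs6, the complex II flavoprotein Sdha and Atp5s, which is named for a coupling factor and is no subunit. At week 10 the 8 were Ndufab1, Ndufa4l2, Ndufb3, Ndufb4, Ndufa11, Ndufv3, Cox4i2 and Atp5g3. Atp5g2 was lower at both weeks and Cox7a2l at week 10. By CPM alone, all 4 LRG1 libraries stood above all 4 eGFP libraries for 20 members at week 7 (background 18.6%) and below for 2, Atp5g2 and Atp5l (background 19.4%). At week 10 this held for 6 members above (background 9.96%) and 2 below, Atp5g2 and Cox7a2l (background 10.1%).

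The changes of the members were small and most had the same sign. At week 7, 74 of 91 fitted log2 fold changes were above 0, against 50.5% of all genes tested, and their median was 0.11, against 0.006 for all genes. At week 10, 68 of 91 were above 0 with a median of 0.08, against -0.005 for all genes. That direction at week 7 depends on the scaling: with library size alone in place of TMM factors the median of the members was -0.05, with 1 member called higher and 5 lower (Atp5g1, Atp5g2, Atp5l, Cox5a and Cox7a2l). Of all genes, 19.1% were then called in either direction. The median of all genes at week 7 moved to -0.15 under that scaling, so the members stayed above it by about as much as with TMM factors. At week 10 the median of the members was 0.06 under that scaling. The median deviation of the members from their 16-library mean was -0.12 to 0.05 in eGFP and -0.035 to 0.21 in LRG1 libraries of week 7, and -0.17 to 0.05 and -0.04 to 0.11 at week 10, so that the treatments overlapped at both weeks. The pooled SD within groups was 0.086.

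Error was low enough to bound most members within 1.5-fold. The median SE of a log2 fold change was 0.087 for the members and 0.196 for all genes tested at week 7. The 95% interval of the fold lay inside 1.5-fold in either direction for 82 of 91 members at week 7 and 83 at week 10. Intervals that reached past 2-fold belonged to Cox4i2, Cox6a2, Cox6b2, Cox8b and Ndufa4l2 at week 7 and to Cox4i2, Cox6a2, Cox7a1 and Cox8b at week 10. Of these genes, the Cox genes are low isoforms.

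**Figure D3:**
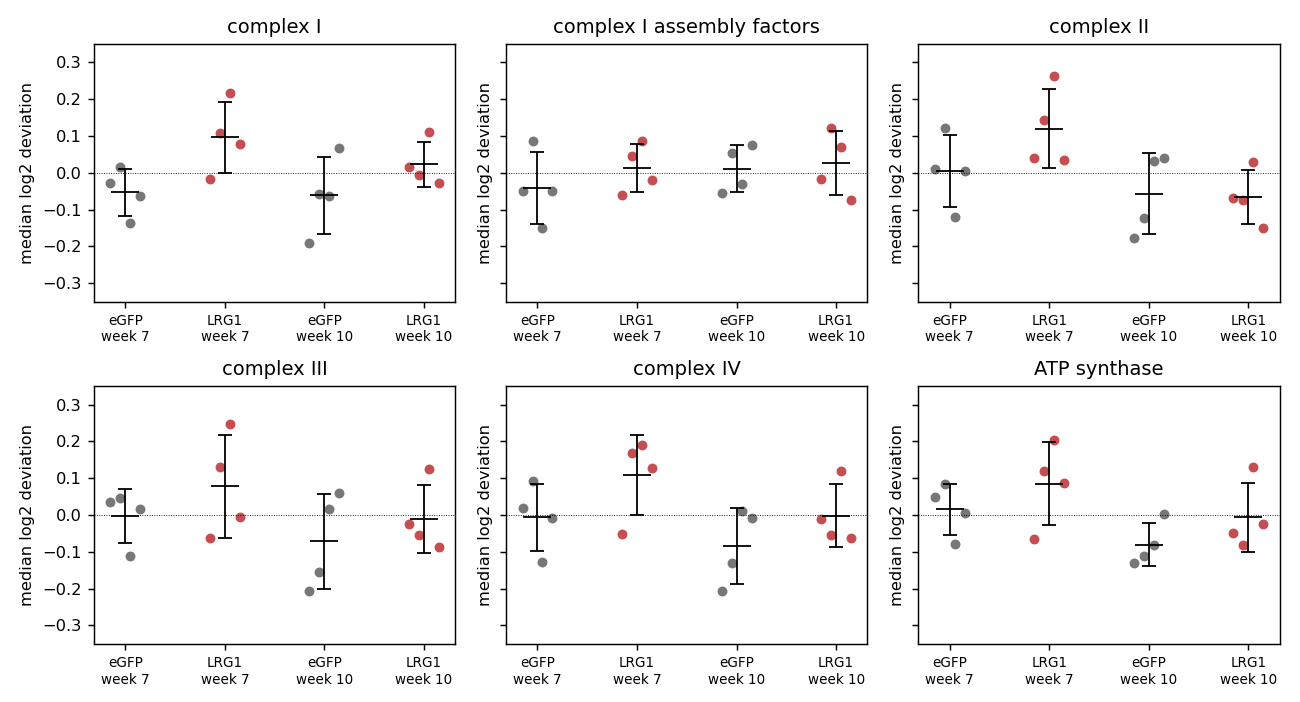
Median over the members of a complex of their log2 CPM minus the mean over 16 libraries, for each library (points), with the mean and SD of each group (bars), eGFP in grey and LRG1 in red. At each week the eGFP and LRG1 libraries overlap in every complex, and in complex II the LRG1 libraries of week 7 (0.03 to 0.26) lie above those of week 10 (-0.15 to 0.03).

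Complex I, which oxidises NADH, had the highest median change at week 7 (0.17, with 33 of 36 subunits above 0), and 0.08 at week 10 (30 of 36). Apart from Ndufab1, none of its subunits was called by edgeR at either week. At an unadjusted p below 0.05 it held 14 and 8 of the 36. Over all genes tested, 8803 and 7634 of the 20822 had such a p at weeks 7 and 10. This is the background for the counts by unadjusted p in every complex and list at these weeks. Beside it, the counts by complex do not show that members stand out. Ndufs1, the 75 kDa iron-sulfur subunit, was at 88.3, 89.2, 82.7 and 86.5 CPM in eGFP and 92.4, 99.2, 112.9 and 93.3 CPM in LRG1 libraries of week 7. Its LRG1 libraries stood above the eGFP libraries by a small margin (log2 fold change 0.20, SE 0.08, edgeR adjusted p = 0.057), and at week 10 they overlapped (0.10, SE 0.08, adjusted p = 0.35). Ndufv1, which binds NADH, gave 0.20 (SE 0.10) and 0.16 (SE 0.10), with overlapping groups at both weeks. Ndufb4, an accessory subunit, was at 14.8, 15.8, 14.3 and 16.2 CPM in eGFP and 16.5, 20.3, 21.5 and 20.2 CPM in LRG1 libraries of week 7, and at 15.7, 19.9, 15.2 and 19.4 against 22.99, 23.1, 21.8 and 20.6 CPM at week 10. Its groups did not overlap at either week, although its edgeR adjusted p of 0.012 and 0.025 missed the threshold. Of the 8 Ndufaf assembly factors, edgeR called 0 in either direction at both weeks, with 2 and 0 at an unadjusted p below 0.05 and medians of 0.11 and 0.05.

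Complex II, which links the tricarboxylic acid cycle to the chain, had all 4 subunits above 0 at week 7 (median 0.14) and 2 of 4 at week 10 (median 0.01). Sdha, the flavoprotein, was at 200, 196, 184 and 205 CPM in eGFP and 224, 228, 257 and 227 CPM in LRG1 libraries of week 7, without overlap (log2 fold change 0.25, SE 0.08, edgeR adjusted p = 0.029). At week 10 it was at 176, 208, 204 and 234 against 227, 223, 248 and 236 CPM, where the groups overlapped (0.18, SE 0.08, adjusted p = 0.12). Sdhb, the iron-sulfur subunit, did not follow it, with 78.3 to 88.2 against 77.4 to 89.8 CPM at week 7 and 68.1 to 88.2 against 66.2 to 81.1 CPM at week 10. Complex III, which passes electrons to cytochrome c, had 8 of 8 Uqcr genes above 0 at week 7 (median 0.08) and 7 of 8 at week 10 (0.04). A further subunit of complex III, Cyc1, is not taken by the symbol rule and was counted in the list of cytochrome c and coenzyme Q. The core protein Uqcrc1 of complex III gave 0.02 (SE 0.10) and 0.00 (SE 0.10), and the Rieske iron-sulfur protein Uqcrfs1 0.07 (SE 0.09) and 0.08 (SE 0.09). None of the complex II or III genes was called at either week by edgeR. At an unadjusted p below 0.05 complex II held 2 at week 7 and 1 at week 10, and complex III held 1 and 2.

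Complex IV, the cytochrome c oxidase, held the widest range of changes, from -0.56 to 0.76 at week 7 and from -0.26 to 1.10 at week 10, with medians of 0.10 and 0.05. Of its common subunits, Cox4i1 and Cox5a differed little. The log2 fold changes at weeks 7 and 10 were 0.28 and 0.19 for Cox8a and 0.25 and 0.17 for Ndufa4, without a call by edgeR. All LRG1 libraries of Cox8a stood above all eGFP libraries at week 7. Cox4i1, the common form of subunit 4, was at 186, 194, 171 and 183 CPM in eGFP and 180, 207, 208 and 189 CPM in LRG1 libraries of week 7 (log2 fold change 0.10, SE 0.07) and changed by 0.03 (SE 0.07) at week 10. Cox5a gave -0.13 (SE 0.08) and -0.14 (SE 0.08). ATP synthase had a median of 0.09 at week 7 and 0.06 at week 10. There 0 genes were called by edgeR, with 6 and 5 at an unadjusted p below 0.05. Its catalytic subunit Atp5b was at 833, 817, 719 and 807 CPM in eGFP and 842, 923, 1017 and 882 CPM in LRG1 libraries of week 7 (0.21, SE 0.10, edgeR adjusted p = 0.13), and Atp5a1 gave 0.21 (SE 0.08, adjusted p = 0.062). The LRG1 libraries of both genes stood above the eGFP libraries at week 7. They overlapped at week 10, with 0.14 (SE 0.10) and 0.19 (SE 0.08).

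The isoform pairs were compared within libraries, as the count of the rarer or related gene in percent of its partner, so that no scaling factor enters. Over 9 pairs and 2 weeks, 18 exact two-sided permutation tests of 4 against 4 libraries were made, for which the smallest possible p is 0.029. Of these, 8 reached it, and none passed an adjusted p below 0.05, the lowest being 0.064. Atp5g1, Atp5g2 and Atp5g3 encode the same mature c subunit of ATP synthase with different targeting peptides. Atp5g2 was at 8.64, 10.6, 9.12 and 9.31% of Atp5g3 in eGFP libraries of week 7 and at 7.01, 7.65, 6.52 and 6.88% in LRG1 libraries, and at 9.34, 8.21, 11.03 and 8.43% against 5.56, 6.29, 5.87 and 5.43% at week 10. Every LRG1 library was below every eGFP library of its week (exact permutation p = 0.029, adjusted p = 0.064 at both weeks). Atp5g1 against Atp5g3 went the same way at week 7, at 28.1 to 39.2% in eGFP and 22.4 to 26.1% in LRG1 libraries, and overlapped at week 10, at 27.0 to 37.5% and 20.2 to 27.6%. In the fit by gene, Atp5g2 itself had log2 fold changes of -0.30 (SE 0.11, edgeR adjusted p = 0.038) and -0.42 (SE 0.11, edgeR adjusted p = 0.012). Of the 50-base words in the Atp5g2 transcripts, 38.3% occur in other annotated genes, so its counts are uncertain.

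Cox7a2l, a relative of Cox7a2 that joins complexes III and IV into supercomplexes, was at 171, 192, 166 and 174% of Cox7a2 in eGFP and 136, 146, 132 and 130% in LRG1 libraries of week 7. At week 10 it was at 237, 191, 220 and 175% against 164, 172, 158 and 145%. The treatments did not overlap at either week (exact permutation p = 0.029, adjusted p = 0.064). The log2 fold changes of the gene were -0.22 (SE 0.09, edgeR adjusted p = 0.077) and -0.26 (SE 0.09, edgeR adjusted p = 0.049), and 13.8% of its 50-base words are shared with other genes. Ndufa4l2 against Ndufa4 was at 3.85, 4.52, 6.19 and 4.95% in eGFP and 8.19, 6.87, 5.92 and 6.76% in LRG1 libraries of week 7, where replicate 3 of each group made the groups overlap, and at 4.74 to 5.84% against 6.05 to 7.82% at week 10, where they did not.

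The isoforms typical of heart, muscle and brown fat were low in this tissue. Cox7a1 was at 2.49 to 3.76 CPM in eGFP and 2.82 to 4.86 CPM in LRG1 libraries of week 7, and at 1.70, 2.28, 1.38 and 2.70 against 2.81, 2.67, 4.03 and 2.90 CPM at week 10 (log2 fold change 0.62, SE 0.23, edgeR adjusted p = 0.065). Cox8b was at 2.97 to 4.02 against 4.61 to 7.70 CPM at week 7, without overlap, and at 1.34 to 4.35 against 2.08 to 5.86 CPM at week 10. It had the largest fitted rise of week 7 (log2 fold change 0.76) and gave 0.64 at week 10, and edgeR called it at neither week. Cox6a2, at 0.15 to 1.07 CPM over all libraries, had the lowest fitted value at week 7 (-0.56, SE 0.43), and Cox6b2, at 0.16 to 0.56 CPM, gave -0.35 (SE 0.36) and -0.10 (SE 0.36). The markers of skeletal muscle summed to 9.06 to 56.6 CPM over all groups, and Acta1 made up most of that. Of the 8 tested muscle markers, 0 were called at either week by edgeR and 0 had an unadjusted p below 0.05. Cox4i2, the form of subunit 4 known from lung and hypoxic tissue, was at 1.42, 0.75, 1.37 and 1.04 CPM in eGFP and 1.43, 2.03, 1.54 and 1.95 CPM in LRG1 libraries of week 7. At week 10 it was at 0.64, 1.44, 0.42 and 1.11 against 1.96, 1.17, 3.14 and 1.59 CPM. It had the largest fitted rise of week 10 (log2 fold change 1.10, SE 0.35, edgeR adjusted p = 0.034). Its groups overlapped at week 10, whereas at week 7 the lowest LRG1 library (1.432 CPM) was just above the highest eGFP library (1.424 CPM).

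**Figure D4:**
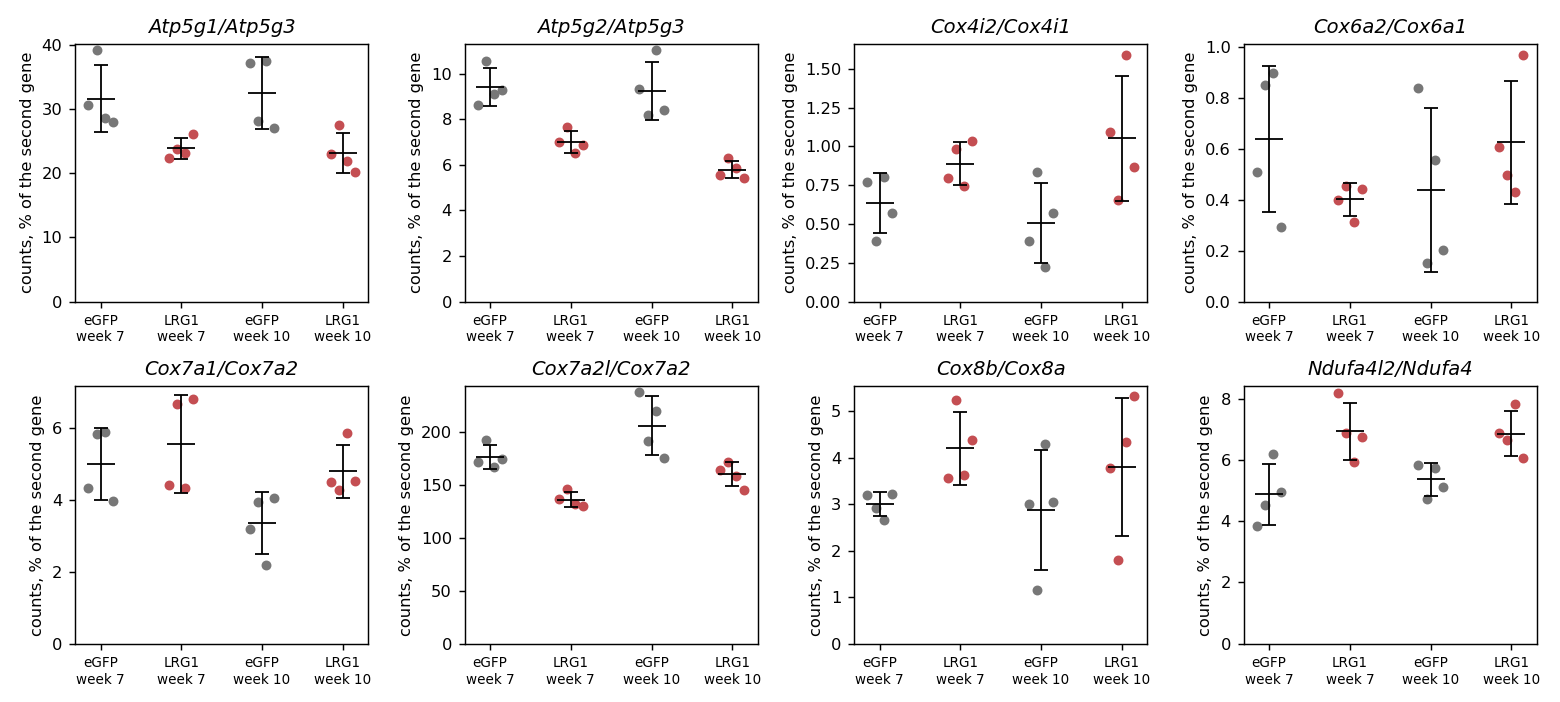
Counts of 8 genes in percent of the counts of their partner, for each library (points), with mean and SD of the group (bars), eGFP in grey and LRG1 in red. Atp5g2 against Atp5g3 and Cox7a2l against Cox7a2 are lower in every LRG1 library of both weeks, and the ratios of the rare Cox isoforms scatter widely.

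The third comparison asked whether the effect of LRG1 differed between the weeks. No member was called by edgeR for the difference, against 0.327% of all genes. At an unadjusted p below 0.05 the members held 0, beside 1953 of the 20822 genes in either direction. DESeq2 and limma-voom called 0 as well. The median difference was -0.04. Ndufab1 differed by 0.00 (95% interval -0.27 to 0.26) and Ndufa4l2 by -0.22 (-0.58 to 0.13). The interval of the difference lay inside 1.5-fold for 83 of 91 members.

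With age, 0 members were called in eGFP mice by edgeR, DESeq2 or limma-voom, against a background of 2.14% in edgeR. At an unadjusted p below 0.05, 2 were higher and 11 lower at week 10. The median was -0.055, against -0.009 for all genes, and ATP synthase had a median of -0.11 with 14 of 17 genes below 0. Atp5o, a stalk subunit of ATP synthase, gave -0.27 (SE 0.07, edgeR adjusted p = 0.034) and Uqcrq, a small subunit of complex III, -0.35 (SE 0.10, edgeR adjusted p = 0.050); both were named after their values were seen, as the lowest adjusted p of this comparison. In LRG1 mice 0 members were called by any of the 3 tools (background 0.00961%), with 1 higher and 13 lower at an unadjusted p below 0.05. There 75 of 91 fitted values were below 0, with a median of -0.09, against -0.003 for all genes. The counts by unadjusted p and by sign have no share of all genes beside them here, so they do not show that members stand out. These comparisons of age share libraries with those of treatment, so their values are not independent.

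Genes of the same pathways were counted in the same fit. Their medians at week 7 are relative to the TMM scaling, and those smaller than the shift of all genes under library size alone are not fixed in sign. Over all genes tested, 7.37% were called higher and 10.7% lower at week 7, and 3.66% and 5.24% at week 10. These shares are the background for every list here and below. The 18 genes of the tricarboxylic acid cycle and pyruvate dehydrogenase had a median of 0.28 at week 7, with 6 called higher and 0 lower. At week 10 the median was 0.18, with 3 and 0. Among them Sucla2 rose from 120 to 159 CPM (log2 fold change 0.41, SE 0.07, edgeR adjusted p = 6.1e-04) and Ogdh, a subunit of the 2-oxoglutarate dehydrogenase, from 159 to 212 CPM (0.41, SE 0.07, edgeR adjusted p = 6.1e-04) on group means of week 7. Of 39 tested assembly factors of the chain outside the symbol rule, 7 rose and 1 fell at week 7 and 3 rose at week 10. Lyrm7, which helps build complex III, rose from 8.43 to 11.97 CPM and Acad9, which helps build complex I, from 31.6 to 45.1 CPM at week 7, while Coa4, a complex IV factor, fell from 4.98 to 3.06 CPM. Of 15 genes of cytochrome c and coenzyme Q, Coq9 rose at week 7 (0.43, SE 0.08, edgeR adjusted p = 0.0011) and 0 at week 10, where 4 had an unadjusted p below 0.05. Of 19 genes of fatty acid oxidation, 2 rose and 1 fell at week 7 and 2 rose at week 10. Decr1 and Acadm rose and Cpt1a, the rate-limiting carnitine transferase, fell from 181 to 106 CPM at week 7. Of 18 genes of mitochondrial import and inner membrane structure, 4 rose at week 7 and 2 at week 10, Tomm20 at both. Of 77 mitochondrial ribosomal proteins 4 and 2 rose (5.19% and 2.6%, below the share of all genes called higher), with medians of 0.01 and 0.04. Of 13 carriers 2 rose and 2 fell at week 7 and 1 fell at week 10, the uncoupling protein Ucp2 among the latter at both weeks (471 to 195 CPM and 351 to 221 CPM).

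Of 17 regulators of mitochondrial biogenesis, 1 rose and 2 fell at week 7, and 1 fell at week 10. Nrf1, the factor whose core letters were searched above, had group means of 19.4 CPM with eGFP and 14.3 CPM with LRG1 in week 7 (log2 fold change -0.45, SE 0.10, edgeR adjusted p = 0.0025) and at 15.9 and 13.4 CPM at week 10 (-0.24, SE 0.10, edgeR adjusted p = 0.079). Perm1 fell at both weeks, from 3.81 to 0.97 and from 2.71 to 0.65 CPM, and Tfb2m, a mitochondrial transcription factor, rose at week 7 from 8.57 to 12.1 CPM. Subunits encoded by the mitochondrial genome were counted in the same libraries. Of 12 tested protein genes of the mitochondrial chromosome, 6 were called higher at week 7 (median 0.80) and 2 at week 10 (median 0.35). The complex I subunit mt-Nd6 rose from 285 to 535 CPM and mt-Nd4 from 753 to 1472 CPM at week 7, and mt-Nd4 from 799 to 1081 CPM at week 10. Counts of mt-Co2, mt-Co3 and mt-Atp6 were at most 3.22 CPM on group means, while the lowest group mean of mt-Co1 was 13104 CPM, and the values of these 3 genes are uncertain. Mitochondrial ribosomal RNA took 24.97% of counts with eGFP and 29.2% with LRG1 in week 7, and 26.2% and 26.9% in week 10; of its 2 genes 1 rose in week 7 and 0 in week 10 by edgeR, where 1 had an unadjusted p below 0.05.

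**Figure D5:**
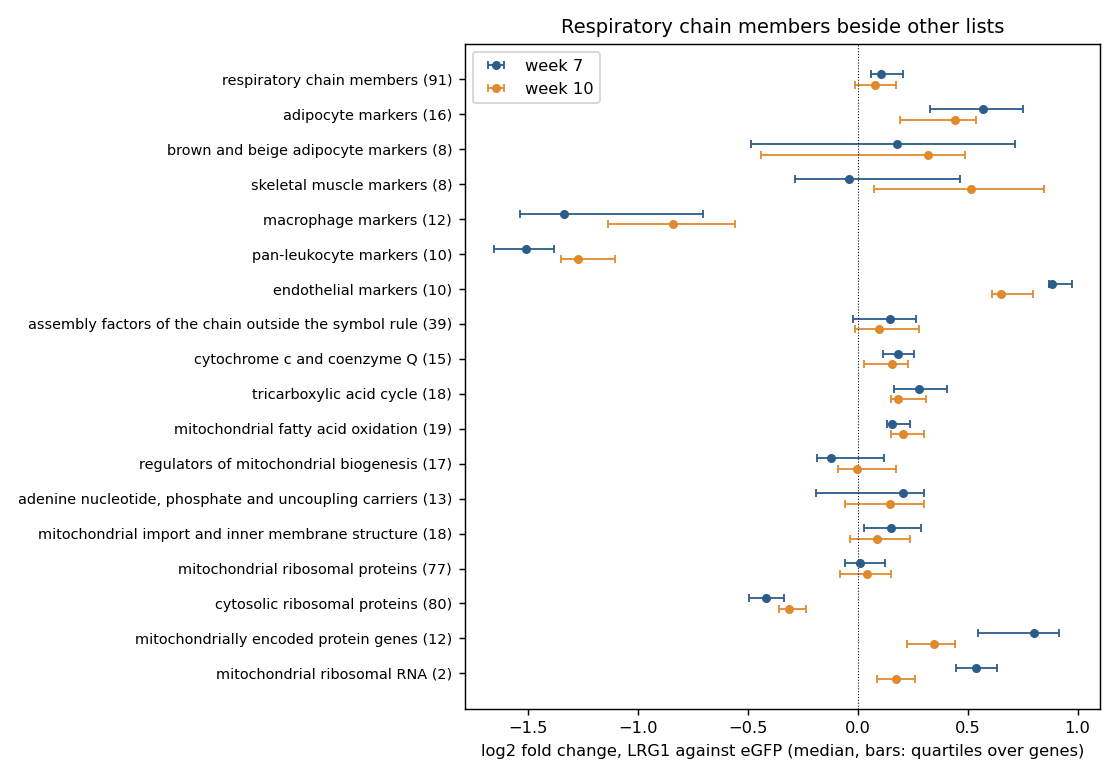
Median log2 fold change of LRG1 against eGFP (points) with the quartiles over genes (bars) for the 91 respiratory chain members and 17 other lists, with the number of tested genes in brackets, at weeks 7 and 10. The medians of the members, 0.11 and 0.08, lie between those of the mitochondrially encoded genes (0.80 and 0.35) and the pan-leukocyte markers (-1.51 and -1.27).

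Markers of several cell types were counted beside the members. The 16 adipocyte markers had a median of 0.57 at week 7, with 16 above 0 and 3 called higher (Slc2a4, Cidec and Lpl), and 0.44 at week 10 with 2 called higher (Pparg and Lep); none was called lower. They summed to 23956 to 24264 CPM in eGFP and 30360 to 36612 CPM in LRG1 libraries at week 7, and 20591 to 30949 and 33144 to 35885 CPM at week 10. Of 12 macrophage markers, 9 fell at week 7 and 8 at week 10 (medians -1.34 and -0.84), and of 10 endothelial markers 8 and 1 rose. Of 8 brown and beige markers, Cidea rose at week 7 (1.51 to 5.26 CPM) and none at week 10 by edgeR, where 2 had an unadjusted p below 0.05. The list did not move as a whole: 4 fitted values were above 0 and 4 below at week 7, and 5 and 3 at week 10. The 80 cytosolic ribosomal proteins had medians of -0.42 and -0.31, with 56 and 11 called lower. None of 10 epididymis and testis markers passed the filter, with at most 30 counts in a library. What part cell composition has in the values of the members was not tested.

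Reads of near-identical genes limit some members. Of the 91 tested, 45 share a 50-base word with another annotated gene and 13 share over 10% of theirs, among them Uqcrb (25.4%), Cox7c (22.1%), Ndufs5 (21.7%), Atp5h (19.9%) and Ndufb4 (18.3%). Another 12 lie with over 10% of their exon bases under another gene on either strand, Ndufaf2 (65.6%) and Atp5o (47.9%) most. Their counts are uncertain, since neither the treatment of multiply mapped reads nor the strand setting is given in the sources used here.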

How the data were processed

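Counts per gene of whole eWAT from 16 C57BLKS/J-db/db males (4 per treatment and week) were analysed. The authors trimmed reads with Cutadapt, aligned them to mm10 (GRCm38) with STAR and counted them with featureCounts; the deposited counts are not normalized, and tool versions are not given in the sources used here. No per-sample columns were left unused. Members and gene lists were chosen with earlier results of these data known, so they are no independent evidence.

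In R 4.3.3 with edgeR 4.0.16, filterByExpr by group kept 20822 genes. One quasi-likelihood fit of all 16 libraries (TMM factors 0.847 to 1.10, common coefficient of biological variation 0.203) had 1 coefficient per group and no covariate. A gene counted as called below 0.01 after Benjamini-Hochberg adjustment over these genes. Standard errors were derived by dividing the absolute change by the root of the F statistic, with 95% intervals from the t quantile of its degrees of freedom. CPM used TMM-scaled totals, and RPKM divided CPM by the deposited gene length in kilobases. Isoform ratios had 0.5 added to both counts and were compared by exact permutation in Python 3.11.15 with numpy 2.4.6.

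Named are genes called at either week (up to 4 per complex and direction), the core subunits, all isoform pairs and the largest fitted rise and fall. For a list, up to 2 genes per direction with the smallest adjusted p are named; further genes in the text were added after their values were seen. One member that this rule names is not reported here. Shared 50-base words were counted over annotated transcripts of GRCm38. Within a group, log counts correlated at 0.971 to 0.982, so no library was a duplicate; nothing states separate litters, and p-values measure the spread between these mice. The scripts were tested on simulated data. Alternatives were DESeq2 1.42.0, limma-voom (limma 3.58.1), other scalings, filters, thresholds and sample sets, and each library left out in turn. Leaving out eGFP replicates 1 and 3 of week 10 was chosen after seeing the data.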

Additional observations from a re-analysis of the deposited data

Results flagged for a closer look

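Groups of 4 libraries were searched for a library far from the others in 172 sets of values (named members, isoform ratios and member medians). Of these, 9 held such a library, by Dixon's criterion at the 95% level. Chance flags about 1 set in 20.

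In LRG1 mice of week 10, replicate 3 stood above the others in 4 of the 9. Its median deviation over all members was 0.111, against -0.041 to -0.021 in the other 3 libraries. Cox5a was at 20.3 CPM there, against 19.6 to 19.7. Cox7a1 was at 4.03 CPM, against 2.67 to 2.90, and Uqcrfs1 at 56.5 CPM, against 48.1 to 49.5.

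In LRG1 mice of week 7, Sdha was at 256.8 CPM in replicate 3, against 224 to 228 CPM in the others. Ndufa4l2 was at 5.30 CPM in the same library, against 5.96 to 6.05, and Ndufa4 at 73.9 CPM in replicate 1, against 87.1 to 89.5. In eGFP mice of week 7, Cox6b2 was at 0.155 CPM in replicate 3, against 0.491 to 0.543, and its log2 ratio to Cox6b1 was -9.79, against -8.29 to -8.23. The cause of these gaps was not tested.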

How the results depend on the processing

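Of the values that summarise a comparison, 471 counted as unchanged under an alternative and 39 as moved. A median counted as unchanged if it shifted by less than 0.086, the pooled SD within groups. The medians of the members at week 10 (0.077), for age in eGFP mice (-0.055) and for the difference between weeks (-0.042) are smaller. They could reach 0 and still count as unchanged. An isoform ratio counted as unchanged if its call at an adjusted p below 0.05 was, and no ratio was called in the report. With 18 tests and a smallest possible permutation p of 0.029, a ratio could be called only if many reached that p together. Ratios counted as unchanged could still shift in size. The log2 difference of Cox8b/Cox8a at week 10, 0.447 in the report, ran from 0.060 to 0.771 without each library in turn. With library size only, the median of the members changed sign at week 7 and for the difference between weeks. At week 7 the members called higher, 2 in the report, were 6 by DESeq2, 9 with upper quartile scaling, 1 with library size only, 5 with a filter of 1 CPM in 4 libraries, 11 at an adjusted p below 0.05, 6 with only the libraries compared and 1 to 4 when each library was left out in turn. Those called lower, 0 in the report, were 5 with library size only and 1 at an adjusted p below 0.05. Of all genes at week 7, 26.7% were called between treatments by DESeq2, 18.97% with upper quartile scaling and 19.1% with library size only. The share was 26.2% with the filter of 1 CPM, 31.5% at the looser threshold and 29.04% with only the libraries compared. Where leaving out 1 library changed the count of members called higher, it was 10.5 to 13.6%. Beside these shares, the counts at week 7 do not show that members stand out. At week 10 the members called higher, 2 in the report, were 4 by DESeq2, 0 with library size only, 1 without a filter, 8 at an adjusted p below 0.05, 0 with only the libraries compared, 0 without eGFP replicates 1 and 3 together and 0 to 4 when each library was left out in turn. Those called lower were 1 by DESeq2, 1 with library size only, 1 with the filter of 1 CPM, 2 at an adjusted p below 0.05 and 0 to 1 when each library was left out in turn. Of all genes at week 10, 8.90% were called between treatments in the report, 19.4% by DESeq2 and 6.99% with library size only. Without a filter the share was 5.22%, with the filter of 1 CPM 14.1% and at the looser threshold 22.9%. With only the libraries compared it was 0.063%, without eGFP replicates 1 and 3 together 0.74%, and 1.33 to 17.1% without each library in turn. In eGFP mice the members lower at week 10 were 2 at an adjusted p below 0.05, with 5.86% of all genes called. They were 1 without replicates 1 and 3, with 10.1%. With library size only, the median of the members was -0.053 at week 7, 0.107 for the difference between weeks and -0.17 for age in eGFP mice. The cause was not tested.

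The replicate numbers share only a number: over 24 pairs of same-numbered libraries the median correlation of deviations was -0.013 (-0.20 to 0.14). With the replicate number as a block, the members called higher were 0 at week 10, with 5.64% of all genes called in either direction. There Ndufa4l2 and Ndufab1 had edgeR adjusted p of 0.010 and 0.012. Among single genes, 1055 values kept their status, most of them genes that were not called in the report and stayed so. Another 21 became called and 27 lost their call. The losses were all of the 2 genes called. Ndufab1 was not called in 7 of 20 alternatives at week 7 and 11 of 21 at week 10. At week 10 Ndufa4l2 was not called in 9 of 21. Ndufa4l2 at week 7 kept its call throughout, with log2 fold changes of 0.61 to 0.82. The rare isoforms rest on few counts, and Cox6b2 was at most at 0.557 CPM in any library. The part of depth in the wide intervals was not tested.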
